A study of Homo sapiens with 9 samples.

Results

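Metallothioneins are short cysteine-rich proteins of the cytosol that bind zinc and copper and, where cells meet it, cadmium. Most of the human genes lie in 1 cluster on the long arm of chromosome 16. Zinc activates the transcription factor MTF1, which binds metal response elements in their promoters and in that of SLC30A1, the zinc exporter of the plasma membrane, so these genes are widely used as a readout of free zinc in cells. Glucocorticoids and oxidative stress also induce several of them.

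10 genes were followed, the metallothionein genes MT1E, MT1F, MT1G, MT1M, MT1X, MT1A, MT2A and MT3, their regulator MTF1 and the exporter SLC30A1. They were chosen by name as a family, with MT1E known from earlier results of these data to be higher with siWFDC21P-2, so values for siWFDC21P-2 are given as a description with no test. Against 26636 genes listed in all 9 libraries, 9 of the 10 were listed in at least 1 library, 6 in all 9, and 5 (MT1E, MT1F, MT2A, MTF1 and SLC30A1) had a mean of at least 1 FPKM and entered the fit over 13014 genes. MT3, the brain-enriched member, was listed in no library. MT1G, MT1M and MT1A were listed only in the 4 libraries whose tables hold 29104 genes. The other 5 tables hold 34377 genes without them, so these genes have no value there.

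The libraries came from cells labelled BT549, a human breast cancer line of mesenchymal type. There were 3 libraries with siWFDC21P-1 and 3 with siWFDC21P-2, each an siRNA against the pseudogene transcript WFDC21P, and 3 with the control siRNA siNC, which the labels call WT. All 9 shared RPMI medium with insulin and serum, transfection with 5 µl of 10 µM siRNA, and harvest 48 h later. Values are FPKM, the reads of a gene scaled to its exon length and to the library's total, and the totals behind them were 28.1 to 29.7 M reads for the siWFDC21P-1 libraries, 16.7 to 17.4 M for siWFDC21P-2, and 29.2, 28.3 and 16.3 M for siNC replicates 1 to 3. Whether the libraries stand for separate transfections is not given in the labels, so p-values measure only the spread between libraries.

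The 9 libraries fell into 3 expression sets that cut across the siRNA groups. Set 1 held siWFDC21P-1 replicates 1 and 2 and siNC replicate 1. Set 2 held siWFDC21P-1 replicate 3 and siNC replicate 2. Set 3 held the 3 siWFDC21P-2 libraries and siNC replicate 3. On the log2(FPKM + 1) scale, libraries of 1 set correlated at r = 0.929 to 0.986 and those of different sets at r = 0.665 to 0.747, over genes. Of the 8 mesenchymal markers fixed for this check, the summed level was 45.5 to 50.2 FPKM in set 1, 0.935 to 1.66 FPKM in set 2 and 703 to 744 FPKM in set 3. The 8 epithelial markers summed to 174 to 384, 1077 to 1677 and 7.01 to 10.2 FPKM in sets 1 to 3. In set 1 nearly all of that sum was KRT8 and KRT18, at 80.4 to 232 FPKM each, while EPCAM, ESRP1, GRHL2 and CDH1 were at 0.0818 FPKM or less. In set 2 the mesenchymal cadherin gene CDH2 was at 0 in both libraries, and the epithelial adhesion gene EPCAM was at 228 FPKM with siWFDC21P-1 and 209 FPKM with siNC, which goes against the label. Set 1 also lacked CDH2, with at most 0.00698 FPKM. Each knockdown library is therefore set against the siNC library of its own set. Differences between sets get no test, because the sets were read from the data, and in bulk RNA fewer cells of a type and less RNA per cell cannot be told apart.

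The target itself followed the labels in part. WFDC21P was at 0.0629 and 0.767 FPKM in siWFDC21P-1 replicates 1 and 2, against 3.08 FPKM in siNC replicate 1, and at 0.227 FPKM in the library labelled siWFDC21P-1 replicate 3, against 0.129 FPKM in the library labelled siNC replicate 2. The siWFDC21P-2 libraries had 4.13, 3.32 and 2.12 FPKM, against 6.87 FPKM in siNC replicate 3. Set 2 thus showed no lower target with the siRNA, at 7 reads with siWFDC21P-1 and 4 with siNC. That is 176% of siNC, with a 95% counting interval of 44.8 to 821%, so the reads are too few to show whether the target was lowered. Over 3 against 3 libraries, siWFDC21P-1 had p = 0.3 in an exact two-sided permutation test and siWFDC21P-2 had p = 1, where 0.1 is the smallest p the design allows. With the set in the limma fit, the log2 fold change was -0.85 ± 0.42 (SE; adjusted p = 0.422) with siWFDC21P-1, and -0.94 ± 0.52 (adjusted p = 0.756) with siWFDC21P-2. Without siNC replicate 1 the siWFDC21P-1 value was 0.12.

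The metallothioneins differ from each other by few bases, which matters for counting their reads. The 3 members whose levels separated the expression sets most, MT2A, MT1E and MT1F, are shown as coding sequences from the GENCODE 29 annotation on hg38, from start to stop codon, with the cysteine codons (TGC and TGT) in capitals. All lie on chromosome 16 on the plus strand, MT2A at chr16:56608199-56609497, MT1E at chr16:56625475-56627112 and MT1F at chr16:56657694-56660698.
MT2A: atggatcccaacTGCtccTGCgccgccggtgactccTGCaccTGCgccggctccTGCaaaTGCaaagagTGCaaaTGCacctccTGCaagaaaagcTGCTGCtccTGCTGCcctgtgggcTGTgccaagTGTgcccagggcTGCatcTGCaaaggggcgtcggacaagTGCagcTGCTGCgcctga
MT1E: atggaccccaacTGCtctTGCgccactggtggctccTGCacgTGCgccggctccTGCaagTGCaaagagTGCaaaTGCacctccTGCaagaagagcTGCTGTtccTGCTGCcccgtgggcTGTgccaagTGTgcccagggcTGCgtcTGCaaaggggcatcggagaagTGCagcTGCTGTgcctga
MT1F: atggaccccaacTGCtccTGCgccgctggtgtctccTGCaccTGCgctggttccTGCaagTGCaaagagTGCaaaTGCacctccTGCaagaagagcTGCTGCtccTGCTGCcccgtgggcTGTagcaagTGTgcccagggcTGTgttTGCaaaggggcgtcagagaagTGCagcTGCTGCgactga
Each runs over 186 bases and 61 codons before the stop, 20 of them for cysteine. MT1E and MT2A differed at 14 bases (92.5% identity), MT1E and MT1F at 15 (91.9%), and MT1F and MT2A at 16 (91.4%). Over the 6 members of this length the identity of a pair was 88.7 to 94.6%. Of all stretches of 50 bases in the transcripts of a gene, 7.10% were shared with another gene for MT1E, 3.02% for MT2A and 1.22% for MT1F, against 18.3% for MT1X, 16.5% for MT1G and 9.87% for MT1M. Most of the shared stretches of MT1X belonged to AC026461.1, which overlaps it. MT1X had 1867 such stretches in all, while its coding transcripts span 450 to 538 bases. The share within coding transcripts alone was not measured for any member. Reads of MT1X, MT1G and MT1M are therefore the least certain.

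Promoters of the members were searched for the letters of the metal response element. The 250 bases before the start site were available from RefSeq (GRCh38.p14) for 4 members, MT2A, MT1X, SLC30A1 and MTF1, and both strands were searched for TGCACNC and TGCGCNC, the core of that element. Matches are in capitals in these promoters, each given on the strand of its gene.
MT2A, chr16:56608334-56608583, plus strand: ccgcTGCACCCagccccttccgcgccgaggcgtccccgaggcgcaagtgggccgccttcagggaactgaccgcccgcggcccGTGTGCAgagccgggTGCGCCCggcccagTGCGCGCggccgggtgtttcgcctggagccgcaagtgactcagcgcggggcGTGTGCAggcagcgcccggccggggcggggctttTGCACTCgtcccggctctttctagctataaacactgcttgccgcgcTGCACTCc
MT1X, chr16:56682220-56682469, plus strand: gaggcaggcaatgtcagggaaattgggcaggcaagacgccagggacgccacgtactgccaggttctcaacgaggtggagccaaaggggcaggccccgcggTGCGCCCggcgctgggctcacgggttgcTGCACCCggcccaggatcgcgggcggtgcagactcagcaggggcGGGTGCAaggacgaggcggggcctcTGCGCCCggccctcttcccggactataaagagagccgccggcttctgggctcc
SLC30A1, chr1:211579162-211579411, minus strand: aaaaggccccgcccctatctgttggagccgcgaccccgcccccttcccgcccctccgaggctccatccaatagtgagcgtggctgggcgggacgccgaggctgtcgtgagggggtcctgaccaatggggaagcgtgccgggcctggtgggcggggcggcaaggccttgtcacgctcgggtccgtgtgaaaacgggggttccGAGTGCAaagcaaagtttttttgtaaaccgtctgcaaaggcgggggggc
MT2A held 7 matches, MT1X 4, SLC30A1 1 and MTF1 0, and no match overlapped another in those printed. Among 35116 promoters of the same length, 24.8% held at least 1 match, 0.370% at least 4 and 0.0313% at least 7. The RefSeq start sites differ from the ends of the GENCODE 29 gene spans. The MT2A window lies inside the span printed above for MT2A. The SLC30A1 window does not adjoin its GENCODE 29 gene, chr1:211571568-211578742, and the bases next to that gene were not searched. A match is a description of letters and shows no binding.

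**Figure D1:**
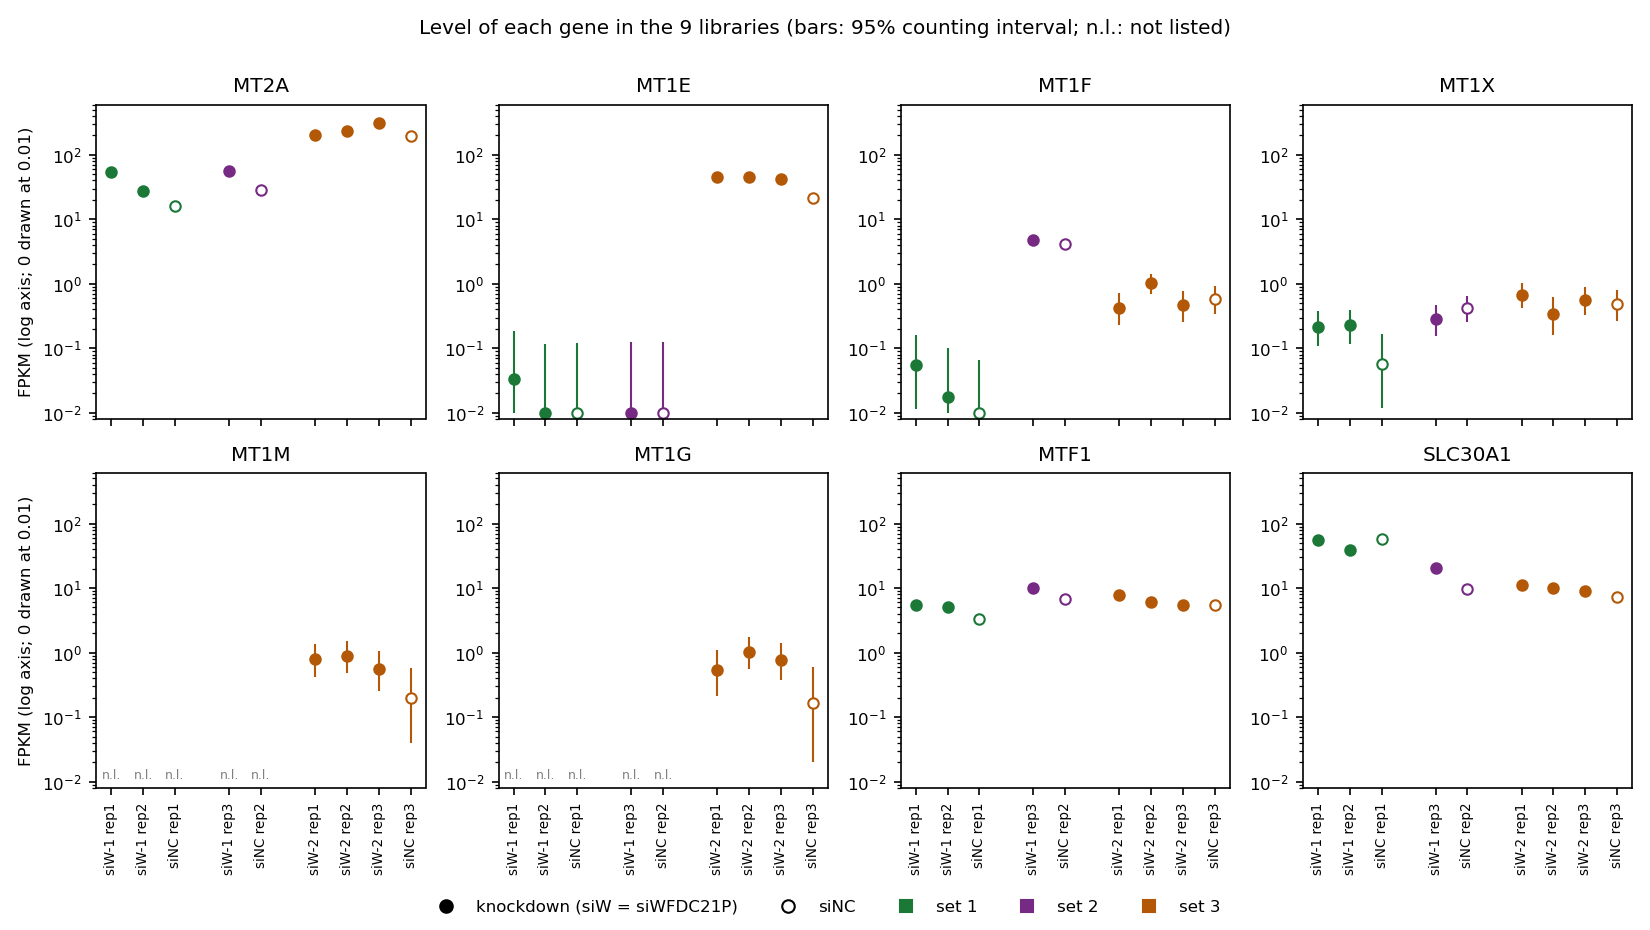
FPKM on a log axis of each listed member except MT1A in every library, with siW for siWFDC21P, filled points for knockdown, open points for siNC, colours for the 3 expression sets and bars for the 95% counting interval on the reads. MT1E lay at 42.3 to 45.8 FPKM with siWFDC21P-2 and 21.2 FPKM in siNC replicate 3 of set 3, and at 0.0329 FPKM or less in the other 5 libraries.

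Which members were on differed by set. MT2A, the most widely expressed metallothionein, was on in all 9 libraries. It was at 199.6, 231 and 316 FPKM with siWFDC21P-2 and 193 FPKM with siNC in set 3, at 56.3 FPKM with siWFDC21P-1 and 28.6 FPKM with siNC in set 2, and at 55.0 and 27.7 FPKM with siWFDC21P-1 and 16.2 FPKM with siNC in set 1. Set 3 lay above both other sets in every library, while sets 1 and 2 overlapped. Among the controls alone, siNC replicate 3 was 11.9-fold above siNC replicate 1 (95% counting interval 10.9 to 12.9) and 6.74-fold above siNC replicate 2 (6.30 to 7.22).

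MT1E, an inducible member, was on in set 3 alone. It was at 44.5, 45.8 and 42.3 FPKM with siWFDC21P-2 (814, 806 and 764 reads) and at 21.2 FPKM with siNC (363 reads). In sets 1 and 2 it had 1, 0 and 0 reads with siWFDC21P-1 and 0 reads in both siNC libraries. The upper 95% counting limits there were 0.118 to 0.183 FPKM, and the floor of 3 reads was 0.0961 to 0.101 FPKM. Taken against that floor in the lower library, the siNC library of set 3 was 217-fold above that of set 1 and 210-fold above that of set 2.

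MT1F had another order. It was at 4.73 FPKM with siWFDC21P-1 (251 reads) and 4.15 FPKM with siNC (222 reads) in set 2, and at 0.426, 1.01 and 0.462 FPKM with siWFDC21P-2 and 0.585 FPKM with siNC in set 3. In set 1 it had 3 and 1 reads with siWFDC21P-1 and 0 with siNC. The sets did not overlap, and siNC replicate 2 was 7.10-fold above siNC replicate 3 (95% counting interval 4.39 to 12.2). Against the floor of 3 reads in siNC replicate 1, it was 76.5-fold higher. After MT2A, MT1F was thus the highest of the 4 metallothionein members listed in set 2, and MT1E of the 7 listed in set 3. Of the 4 listed in set 1, only traces of any but MT2A were seen.

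MT1X, a broadly expressed isoform, was low in every library, under the mean needed for the fit. It was at 0.681, 0.337 and 0.558 FPKM with siWFDC21P-2 and 0.484 FPKM with siNC in set 3. With siWFDC21P-1 it was at 0.281 FPKM, against 0.419 FPKM with siNC, in set 2, and at 0.214 and 0.228 FPKM, against 0.0579 FPKM with siNC, in set 1. Set 1 was the lowest, and sets 2 and 3 overlapped. The siNC value of set 1 rests on 3 reads and those of the other libraries on 10 to 21.

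The members listed only in set 3 were near the limit of depth. MT1M was at 0.793, 0.888 and 0.556 FPKM with siWFDC21P-2, from 13, 14 and 9 reads, and at 0.195 FPKM with siNC, from 3 reads. MT1G, on the minus strand of the cluster, was at 0.537, 1.04 and 0.776 FPKM with siWFDC21P-2, from 7, 13 and 10 reads, and at 0.164 FPKM with siNC, from 2 reads. Every knockdown library lay above the control for both genes, where 26.9% of all tested genes did in all 3. The 95% counting intervals of the 6 ratios ran from 62.4 to 5779% of the control. Both genes share stretches of 50 bases with MT1E, and whether MT1E reads entered their counts was not tested. MT1A had 1, 2 and 0 reads with siWFDC21P-2 and 1 read with siNC. The pseudogene MT1L, also listed in set 3 alone, was at 3.22, 3.20 and 5.52 FPKM with siWFDC21P-2 and 3.73 FPKM with siNC.

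SLC30A1 ran the other way from MT2A across sets. It was at 55.5 and 39.5 FPKM with siWFDC21P-1 and 57.1 FPKM with siNC in set 1, at 20.8 FPKM with siWFDC21P-1 and 9.65 FPKM with siNC in set 2, and at 11.3, 10.1 and 9.10 FPKM with siWFDC21P-2 and 7.23 FPKM with siNC in set 3. Set 1 lay above the others, which overlapped. MTF1 varied least, at 5.42 and 5.01 FPKM with siWFDC21P-1 and 3.34 FPKM with siNC in set 1, 10.1 FPKM with siWFDC21P-1 and 6.76 FPKM with siNC in set 2, and 7.92, 6.14 and 5.51 FPKM with siWFDC21P-2 and 5.50 FPKM with siNC in set 3. Sets 1 and 3 almost met in MTF1, at 5.42 FPKM in the highest library of set 1 and 5.50 FPKM in the lowest of set 3, and sets 2 and 3 overlapped.

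**Figure D2:**
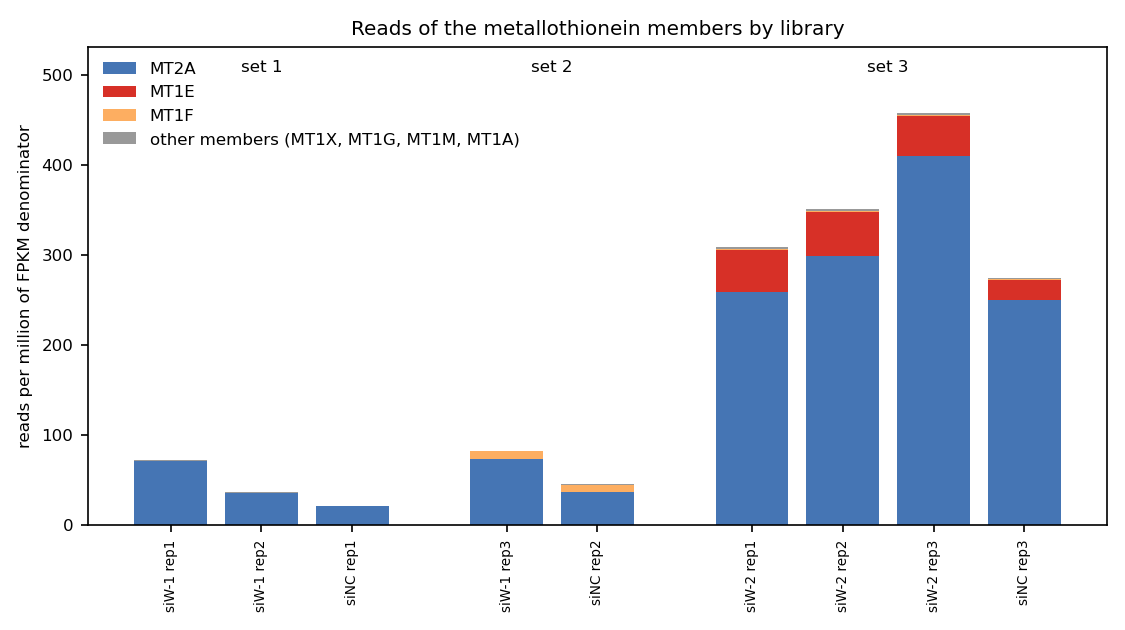
Reads of the metallothionein members per M reads of the FPKM denominator in each library, stacked by gene, knockdown libraries (siW for siWFDC21P) left of siNC within each set. Set 3 stood at 309 to 458 with siWFDC21P-2 and 275 with siNC, and MT2A made up the largest part of every bar.

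Summed over the members, metallothionein reads per M reads of the library were 309, 352 and 458 with siWFDC21P-2 and 275 with siNC in set 3. They were 82.6 with siWFDC21P-1 and 45.7 with siNC in set 2, and 71.9 and 36.4 with siWFDC21P-1 and 21.2 with siNC in set 1. MT2A gave 83.8, 85.1 and 89.7% of these reads with siWFDC21P-2 and 91.0% with siNC in set 3. Its share was 88.6% with siWFDC21P-1 and 81.2% with siNC in set 2, and 99.3 and 98.8% with siWFDC21P-1 and 99.5% with siNC in set 1. The share of MT1E in set 3 was 15.1, 13.7 and 9.70% with siWFDC21P-2 and 8.11% with siNC. MT1F held 10.8% with siWFDC21P-1 and 17.2% with siNC in set 2. Sums and shares cover the metallothionein members listed, 7 in set 3 and 4 in sets 1 and 2. All 6 libraries labelled as knockdown were above the siNC library of their set in the summed reads, with 3 siNC libraries shared among them. They include the library labelled siWFDC21P-1 replicate 3, whose target was not seen to be lower, on too few reads to tell. Of single tested genes, 27.9% were above siNC in all 3 siWFDC21P-1 libraries and 26.9% in all 3 siWFDC21P-2 libraries. The siWFDC21P-2 sums include MT1E, which chose that comparison, so nothing is read from their direction. MT2A made up most of the difference from siNC in 5 of the 6 knockdown libraries and MT1E in siWFDC21P-2 replicate 1. FPKM here divides by all annotated exon bases of a gene, 1299 for MT2A, whose coding transcripts span 581 to 786, so it understates the level per transcript of these short genes.

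The first comparison asked what siWFDC21P-1 did to the members relative to siNC. MT2A and MTF1 were higher than the siNC library of their set in all 3 siWFDC21P-1 libraries, SLC30A1 was lower in set 1 and higher in set 2, and none of these differences passed the test. MT1E entered the fit through set 3 and MT1F through set 2. In the libraries compared here MT1E had at most 1 read, and MT1F had at most 3 reads in set 1, so counts are read over the other 3 members, MT2A, MTF1 and SLC30A1. In the limma fit with the set as a term, 0 of these 3 passed a Benjamini-Hochberg adjusted p of 0.05, where 0.0231% of all 13014 tested genes did (0.0154% higher and 0.00768% lower), and 2 had an unadjusted p under 0.05, as did 1790 of all genes. 2 of the 3 were above their siNC library in all 3 libraries, where 27.9% of all tested genes were, and 0 were below in all 3, where 20.7% were. Set 2 enters by its labels alone, since its target had too few reads to show whether it was lowered.

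MT2A was 339% of its siNC library in siWFDC21P-1 replicate 1 (95% counting interval 309.7 to 371%), 171% in replicate 2 (154 to 189%) and 197% in replicate 3 (183 to 213%). The intervals cover counting error only and all lay above 100%. The fitted log2 fold change was 1.11 ± 0.32 (SE; 95% interval 0.36 to 1.85), with an adjusted p = 0.221 in limma, and 0.791% of the tested genes had a fold change at least as large. The difference was larger than its standard error but did not pass over all genes. Without the library labelled siWFDC21P-1 replicate 3, which leaves set 1 alone, it was 1.22 ± 0.47, and without the set in the model it was -0.033 ± 0.78. In the same libraries the epithelial keratin gene KRT8 was at 93.4, 112 and 135 FPKM with siWFDC21P-1, against 232 FPKM with siNC in set 1 and 293 FPKM with siNC in set 2 (log2 fold change -1.15 ± 0.18, adjusted p = 0.0893 in limma). Of the 8 epithelial markers, 2 (CDH1 and GRHL2) were above siNC in all 3 siWFDC21P-1 libraries and 3 (KRT8, KRT18 and CLDN4) below. Of all tested genes, 27.9% were above and 20.7% below. KRT18 (-0.82 ± 0.20), KRT19 (-0.43 ± 0.24) and CLDN4 (-0.33 ± 0.20) had the sign of KRT8. CDH1 (0.23 ± 0.26), ESRP1 (0.15 ± 0.15), EPCAM (0.07 ± 0.15) and GRHL2 (0.06 ± 0.14) had the opposite sign. In set 1 CDH1, ESRP1, EPCAM, GRHL2 and KRT19 were at 0.0818 FPKM or less, so only set 2 compares them where they were on. The part of these markers in the MT2A result was not tested.

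MTF1 was 162 and 150.2% of siNC replicate 1 in siWFDC21P-1 replicates 1 and 2 and 149% of siNC replicate 2 in replicate 3. These 3 ratios lay close together, from 1.49 to 1.62. The fitted log2 fold change was 0.52 ± 0.18 (95% interval 0.09 to 0.95; adjusted p = 0.284 in limma), and 9.41% of the tested genes had one at least as large. SLC30A1 was 97.1 and 69.2% of its control in set 1 and 216% in set 2, so its fitted value of 0.28 ± 0.31 (adjusted p = 0.730 in limma) averages over ratios that go both ways. Without siNC replicate 2 or siWFDC21P-1 replicate 3, which leaves set 1 alone, it was -0.28. MT1F had 0.09 ± 0.19 (95% interval -0.36 to 0.55; adjusted p = 0.877 in limma), and in set 2, where it was on, siWFDC21P-1 gave 114% of siNC (95% counting interval 94.6 to 137%). MT1E, at the floor in these libraries, had no change that this depth could show.

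**Figure D3:**
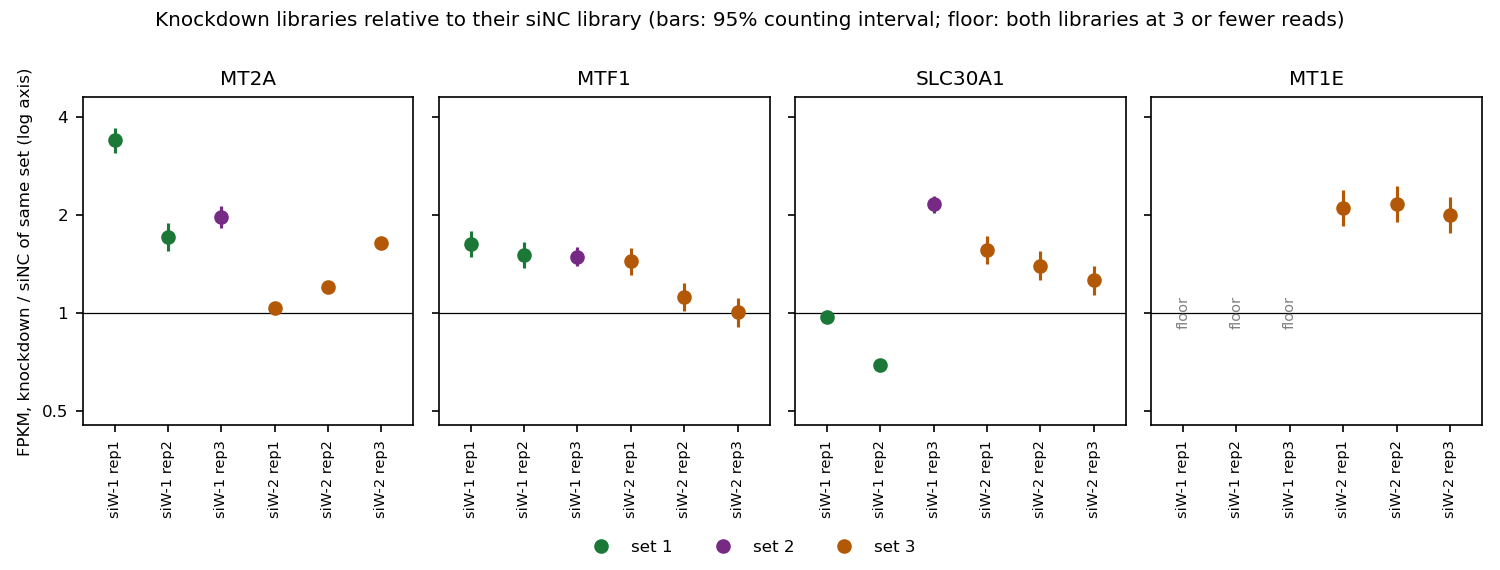
Ratio of FPKM in each knockdown library to the siNC library of its set on a log axis for MT2A, MTF1, SLC30A1 and MT1E, with siW for siWFDC21P, colours for sets and bars for the 95% counting interval. MT2A and MTF1 lie above 1 in all 6 libraries (1.00 for MTF1 in siWFDC21P-2 replicate 3), MT1E near 2 in the 3 libraries of set 3, and SLC30A1 below 1 in set 1 alone.

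The second comparison set siWFDC21P-2 against siNC within set 3, which has 1 siNC library. MT1E averaged 44.2 ± 1.78 FPKM with siWFDC21P-2 (SD, n = 3) and was at 21.2 FPKM in siNC replicate 3. The 3 libraries had 210.1, 216 and 199.6% of the control, with 95% counting intervals from 176 to 245% over all of them. The fitted log2 fold change was 1.03 ± 0.18 (SE). That SE also draws on the libraries of sets 1 and 2, where MT1E had at most 1 read. The knockdown libraries lay within a narrow range and all above the control, but the spread between siNC libraries of this set is not known. 4 of the 5 tested members (MT1E, MT2A, MTF1 and SLC30A1) had a value above siNC in all 3 libraries, MTF1 at 100.3% of it in replicate 3, where 26.9% of all tested genes did, and 0 were below in all 3, where 26% were. Nothing is read from these counts, since the comparison chose MT1E.

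MT2A averaged 249 ± 60.5 FPKM with siWFDC21P-2 (SD, n = 3), against 193 FPKM with siNC, at 104, 119.7 and 164% of the control. The first of these has a 95% counting interval of 99.3 to 108%, which includes no difference. The fitted log2 fold change was 0.34 ± 0.40, and 0.15 ± 0.40 without siWFDC21P-2 replicate 3. SLC30A1 averaged 10.2 ± 1.09 FPKM with siWFDC21P-2, against 7.23 FPKM with siNC, at 156, 139.7 and 126% of the control (0.43 ± 0.38). MTF1 was at 144, 112 and 100.3% of the control (0.20 ± 0.23), and the 95% counting interval of replicate 3 was 90.4 to 111%. Without siWFDC21P-2 replicate 1 the MTF1 value was 0.07 ± 0.17. MT1F had 72.9, 173 and 79.0% of the control, with counting intervals that all include 100%, and MT1X had 141, 69.6 and 115%, likewise.

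The 3 siWFDC21P-2 libraries were not alike in other genes. Of the 11 tested cadmium and oxidative stress genes, which share inducers with metallothioneins, 1 was above siNC replicate 3 in all 3 libraries and 9 below, where 26.9% and 26% of all tested genes were, and the median log2 fold change was -1.56. HMOX1, heme oxygenase 1, was at 1048, 151 and 86.8 FPKM with siWFDC21P-2, against 1572 FPKM with siNC. Of the 8 mesenchymal markers, 3 were above siNC in all 3 siWFDC21P-2 libraries and 2 below. COL1A2, a fibrillar collagen chain, was at 80.2, 272 and 224 FPKM with siWFDC21P-2, against 56.2 FPKM with siNC. MMP14, a membrane-bound matrix protease, was at 228, 71.9 and 85.9 FPKM with siWFDC21P-2, against 219.8 FPKM with siNC. Replicate 1 lay nearest the control in these 3 genes. In replicates 1 to 3, MT1E was at 210.1, 216 and 199.6% of the control and MT2A at 104, 119.7 and 164%. The part of the 3 other genes in the MT1E and MT2A values was not tested.

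**Figure D4:**
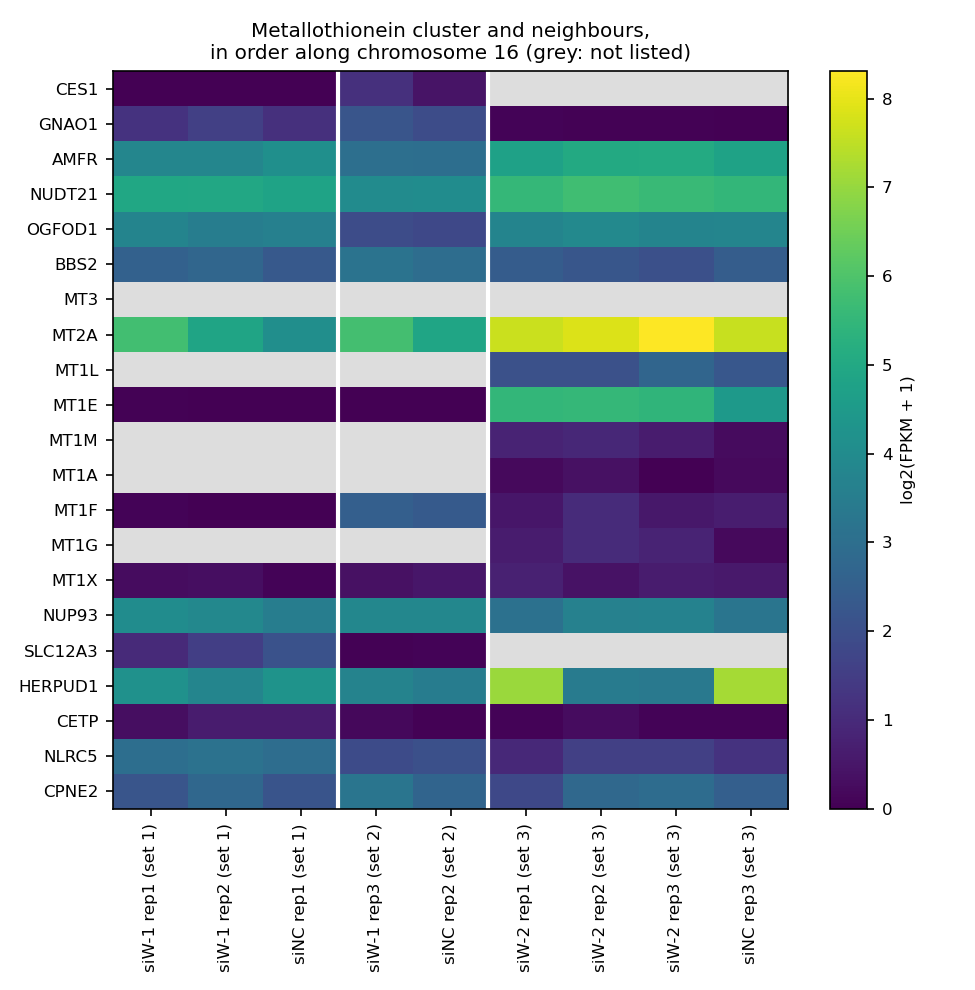
Log2(FPKM + 1) of the metallothionein cluster and its neighbours in their order along chromosome 16, by library, with siW for siWFDC21P, knockdown libraries left of siNC within each set and grey for genes that a table does not list. MT1E and MT1F differ between sets, and so do some neighbours, such as GNAO1, lowest in set 3, and OGFOD1, lowest in set 2, while NUDT21 and NUP93 are present in all 9 libraries.

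The genes around the cluster gave the local setting. 9 of 12 chosen neighbours were tested, and 0 passed with siWFDC21P-1 in limma, with 0 at an unadjusted p under 0.05. 3 of the 9 were above siNC in all 3 siWFDC21P-1 libraries and 0 below, where 27.9% and 20.7% of all tested genes were, and the median log2 fold change was 0.07 with siWFDC21P-1 and 0.02 with siWFDC21P-2. The 4 with the smallest p for siWFDC21P-1 were GNAO1 (0.25 ± 0.16), BBS2 (0.27 ± 0.18), CPNE2 (0.42 ± 0.36) and NUP93 (0.26 ± 0.23), all with an adjusted p of 0.545 to 0.659 in limma. NUP93, a nuclear pore scaffold protein gene beyond MT1X, was at 15.6, 13.8 and 13.4 FPKM with siWFDC21P-1 and 7.56, 11.7 and 11.8 FPKM with siWFDC21P-2, against 10.4, 13.4 and 8.48 FPKM with siNC. GNAO1, a G protein subunit gene, was at 1.31, 1.96 and 3.57 FPKM with siWFDC21P-1 and 0.0469, 0.0304 and 0.0237 FPKM with siWFDC21P-2, against 1.20, 2.85 and 0.0188 FPKM with siNC. Neighbours thus differed between sets too, GNAO1 with its low values in set 3, where MT1E was on. BBS2, a ciliary trafficking gene on the other side, was at 3.04 to 7.94 FPKM in all 9. Among other metallothionein genes and pseudogenes, 6 of 13 were listed in at least 1 library and only MT2P1, a processed pseudogene of MT2A, was tested (0.06 ± 0.29).

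Zinc transporters beside SLC30A1 were followed as 2 lists. Of 9 further SLC30 genes, most of which move zinc out of the cytosol, 5 were tested. With siWFDC21P-1, 0 passed in limma with 0 at an unadjusted p under 0.05, and the median log2 fold change was 0.09. SLC30A9 was above its control in all 3 libraries (0.32 ± 0.18), and SLC30A7 (-0.16 ± 0.18), SLC30A6 (0.16 ± 0.24) and SLC30A4 (0.09 ± 0.15) were not all on one side. Of 14 SLC39 importers, which move zinc into the cytosol, 11 were tested, 0 passed and 2 had an unadjusted p under 0.05. 4 of the 11 were above siNC in all 3 siWFDC21P-1 libraries and 2 below, where 27.9% and 20.7% of all tested genes were, with a median of 0.07. Over all 13014 tested genes, 1790 had an unadjusted p under 0.05.

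SLC39A7, which releases zinc from the endoplasmic reticulum, had the smallest p among the importers. It was at 92.3 and 85.2 FPKM with siWFDC21P-1 and 52.6 FPKM with siNC in set 1, and at 52.7 FPKM with siWFDC21P-1 and 30.1 FPKM with siNC in set 2. The log2 fold change was 0.76 ± 0.15, with an adjusted p = 0.119 in limma. SLC39A13, a Golgi zinc transporter, was at 2.98 and 5.48 FPKM with siWFDC21P-1, against 9.08 FPKM with siNC, in set 1, and at 3.93 FPKM, against 5.89 FPKM, in set 2 (-0.77 ± 0.29; adjusted p = 0.306 in limma). SLC39A11 (0.59 ± 0.28) and SLC39A3 (0.52 ± 0.26) were above their controls in all 3. None of the transporters passed the test. Of the 3 tested genes of the zinc chaperone and sensor list, SLC30A1 among them, 0 passed and 0 were on one side in all 3 siWFDC21P-1 libraries. Of all tested genes, 27.9% were above siNC in all 3 and 20.7% below.

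The genes most like MT1E over the 9 libraries, by Pearson r of log2(FPKM + 1), were HOXB8 (0.999), CCDC74A (0.998), LEPR (0.998), CXCL6 (0.997) and BAALC (0.997). In all, 408 genes had an r over 0.95, since any gene on in set 3 alone is alike on this measure. HOXB8, a homeobox gene, was at 13.96, 16.2 and 12.1 FPKM with siWFDC21P-2, against 8.47 FPKM with siNC in set 3. With the mean of each set subtracted, PGM5 (0.960), RNU6-875P (0.950), HOXB8 (0.935), DGKD (0.932) and UBA52P6 (0.931) were nearest to MT1E. MT1E had at most 1 read in sets 1 and 2, so its r values on this scale rest almost wholly on set 3. RNU6-875P was low, at 0.318 to 2.17 FPKM. For MT2A, LMNA (0.991), CREB3 (0.984), CCDC61 (0.983), RAET1E-AS1 (0.982) and RBBP4 (0.978) were nearest as measured, and YARS2 (0.982), TUBBP1 (0.974), ATPAF2 (0.973), NEDD9 (0.971) and GREB1L (0.970) with set means subtracted. For MT1X, at 3 to 21 reads a library, MNAT1 (0.953) and TLE1 (0.952) led the lists as measured and with set means subtracted. These values describe 9 libraries that share sets and depth, and no p is given.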

How the data were processed

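The authors deposited 1 table of FPKM values per library, by Ensembl gene. Per the submitters' processing notes the tools were HISAT2 2.1.0, Bowtie2 2.2.3 and HTSeq 0.6.0 on hg38. Which aligner served which step, and whether counting used the strand, is not given in the sources used here. No values were rescaled.

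Low FPKM values are multiples of 1 read, so whole reads were recovered from the deposited FPKM with exon lengths of GENCODE 29. 93.7% of values were whole to within 0.02 reads, and reads were recovered for 97.4% of the genes listed in all 9 libraries. 95% intervals on reads (exact Poisson for levels, exact conditional binomial for ratios) and the floor of 3 reads cover counting error only. Without unique molecular identifiers, reads are not independent molecules.

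The model was fitted in limma 3.58.1, under R 4.3.3, to log2(FPKM + 1) of the 13014 genes averaging 1 FPKM or more, with trended empirical Bayes variances, group and expression set as terms, and Benjamini-Hochberg adjustment over all of them. Fold changes are on that scale, which understates low genes. Sets came from average linkage on 1 minus Pearson r, split at 0.15, over 12923 genes without the members and lists. With the set as a term, each siRNA is compared with different siNC libraries. WFDC21P also had an exact permutation test. The scripts were tested on simulated data.

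The members and lists were chosen with earlier results of these data known. Named beside the members were up to 4 genes per list with the smallest unadjusted p for siWFDC21P-1 (1 gene so chosen is not reported here), and the 5 genes most like MT1E, MT2A and MT1X. KRT8, KRT18, KRT19, CLDN4, CDH1, ESRP1, GRHL2, COL1A2, MMP14, EPCAM, CDH2, MT1L, ATOX1, NUDT21, HERPUD1 and OGFOD1 were named after their values were seen. Alternatives were the naming style of the libraries (5 with tables of 34377 genes, 4 with 29104) or no term in place of the set, a replicate block, other pseudocounts and filters, median-ratio scaling, untrended variances, limma-voom on recovered reads, and leaving out each library.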

Additional observations from a re-analysis of the deposited data

Results flagged for a closer look

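2 members had siWFDC21P-1 ratios of opposite sign in set 1 and set 2, and the difference between the sets was not tested. For SLC30A1 the log2 ratio to siNC was -0.0418 and -0.53 in set 1 and 1.11 in set 2, and the 95% counting interval of the first, 94.3 to 100.04% of siNC, includes no difference. For MT1X it was 1.89 and 1.98 in set 1 and -0.58 in set 2, with 3 reads in siNC replicate 1, and the counting intervals of the first (97.9 to 2069.7%) and of set 2 (31.6 to 138%) include 100%.

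2 members outside the fit, because only the tables of set 3 list them, had values above their control library in every siWFDC21P-2 library. Of all tested genes, 26.9% were above siNC in all 3 of these libraries. MT1G was at 0.537, 1.04 and 0.776 FPKM with siWFDC21P-2, against 0.164 FPKM with siNC. MT1M was at 0.793, 0.888 and 0.556 FPKM with siWFDC21P-2, against 0.195 FPKM with siNC. The controls rest on 2 and 3 reads. Both genes share stretches of 50 bases with MT1E, and whether MT1E reads entered their counts was not tested.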

How the results depend on the processing

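With siWFDC21P-1, 3 genes passed over all tested genes. This count was 0 with the naming style in place of the set, with no set term, with the replicate block and without a filter, 26 with a mean of at least 5 FPKM, 1 with limma-voom, and 0 to 153 over the libraries left out, the highest without siWFDC21P-2 replicate 1. With siWFDC21P-2, 0 genes passed, and 682 had an unadjusted p under 0.05. It was 17 without a filter and 0 with limma-voom, and 0 to 902 over the libraries left out, again the highest without siWFDC21P-2 replicate 1. Without siNC replicate 3 this comparison cannot be made. With no set term the siWFDC21P-1 log2 fold change was -1.47 for MT1E, -0.14 for MT1F and -0.033 for MT2A, and the siWFDC21P-2 value was 4.01 for MT1E, 2.41 for MT2A, -0.32 for MT1F, -0.63 for SLC30A1 and 0.31 for WFDC21P. MT1F was at -0.31 with the naming style. SLC30A1 ranged from -0.28 to 1.03 over the libraries left out, and WFDC21P from -1.57 to 0.12 with siWFDC21P-1 and from -1.10 to -0.74 with siWFDC21P-2. MT2A with siWFDC21P-1 kept its direction in the other 18 alternatives (0.85 to 1.33; adjusted p = 0.124 to 0.948 in limma), and MTF1 in all 19 (0.32 to 0.65; adjusted p = 0.110 to 1). The replicate numbers did not pair the libraries (2 of 9 same-numbered pairs had a correlation of deviations over 0.1, in a range of -0.683 to 0.667), and with the replicate block MT2A was at 1.01 and MTF1 at 0.65 with siWFDC21P-1, and MTF1 at 0.0163 with siWFDC21P-2. With siWFDC21P-2, MT2A ranged from 0.15 to 0.49 and MTF1 from 0.07 to 0.30 over the libraries left out. Depth limits MT1X, MT1G, MT1M and MT1A, at 21 reads or fewer in every library.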

Other observations

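Genes of copper and iron handling, glucocorticoid-induced genes and cadmium and oxidative stress genes were followed as further lists. No member of any passed with siWFDC21P-1 in limma. Of 16 copper genes, 14 were tested. 3 were above siNC in all 3 siWFDC21P-1 libraries and 1 below, where 27.9% and 20.7% of all tested genes were. 2 of the 14 had an unadjusted p under 0.05 in limma, as did 1790 of all 13014 tested genes. The median log2 fold change of the copper genes was 0.03. The smallest p values belonged to MEMO1 (0.51 ± 0.15), COX17, a mitochondrial copper chaperone (0.45 ± 0.17), SOD1, the copper and zinc superoxide dismutase (0.38 ± 0.18), and ATP7B, a copper-exporting ATPase (-0.24 ± 0.18). The copper chaperone ATOX1 was at 4.16, 5.04 and 3.85 FPKM with siWFDC21P-1 and 4.42 and 4.07 FPKM in siNC replicates 1 and 2. Of 9 iron genes, 7 were tested, 0 were above siNC in all 3 libraries and 1 below, with a median of -0.05. NCOA4, the ferritin autophagy receptor (-0.23 ± 0.16), FTH1, the ferritin heavy chain (-0.25 ± 0.42), TFRC, the transferrin receptor (-0.21 ± 0.41), and SLC11A2, an iron importer (-0.03 ± 0.18), led it.

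Of 10 glucocorticoid-induced genes, 9 were tested, 3 were above siNC in all 3 siWFDC21P-1 libraries and 0 below, 2 had an unadjusted p under 0.05, and the median was -0.02. FKBP5, a co-chaperone of the glucocorticoid receptor, was at 0.49 ± 0.17, CEBPD at 1.08 ± 0.42, the receptor gene NR3C1 at 0.41 ± 0.20 and KLF9 at -0.31 ± 0.34. Of the 11 tested cadmium and oxidative stress genes, 0 were above siNC in all 3 siWFDC21P-1 libraries and 4 below, with a median of -0.08. Among its smallest p values were those of GCLC, the catalytic subunit of glutamate-cysteine ligase (-0.26 ± 0.19), TXNRD1, a thioredoxin reductase (-0.34 ± 0.40), and HMOX1 (-0.79 ± 0.93). Over all 13014 tested genes, 27.9% were above siNC in all 3 libraries and 20.7% below, and 1790 had an unadjusted p under 0.05.

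On chromosome 16, OGFOD1 was at 2.79 FPKM with siWFDC21P-1 and 2.47 FPKM with siNC in set 2, and at 10.5 to 13.9 FPKM in the other 7 libraries. HERPUD1, an endoplasmic reticulum stress gene, was at 133, 10.1 and 9.29 FPKM with siWFDC21P-2, against 145 FPKM with siNC in set 3.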
